A study of Mus musculus with 18 samples.

Results

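The sodium pump subunit gene Atp1b1, the pump regulators Fxyd2, Fxyd4 and Fxyd5, and the bicarbonate reabsorption genes Slc9a3, Slc4a4 and Car4 were followed in mouse kidney after ischemia and reperfusion. These 7 genes were taken by symbol from the 20825 genes of the deposited table. Each symbol matched 1 row. Levels are FPKM, which divides the fragments of a gene by its transcript length and by the library's mapped fragments, so different genes can be compared per length. All 7 passed the filter on low values, an FPKM of at least 1 in at least 3 libraries, with 14716 genes in all.

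The libraries came from C57BL/6 mice labelled as 11 weeks old, in 6 groups of 3 libraries. In unilateral ischemia and reperfusion (UIR), the vessels of the right kidney were clamped for 45 minutes and released, and the left kidney was not touched. Sham mice were the controls, and both arms were sampled at 1, 3 and 21 days after surgery. The labels call the 3 libraries of a group biological replicates, give 1 age for every day, and name neither the sex nor which kidney was sequenced. The p-values therefore measure the spread between libraries labelled in this way.

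The sodium pump is a complex of a catalytic alpha subunit and a beta subunit, and a small membrane protein of the FXYD family can join it and change its activity. In the kidney the pump sits in the basolateral membrane of the tubule and keeps cell sodium low, which drives sodium uptake from the urine side. Proximal tubule cells use that gradient to secrete protons through the exchanger NHE3, carbonic anhydrases interconvert carbon dioxide and bicarbonate, and the cotransporter NBCe1 returns bicarbonate to the blood.

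The FPKM values summed to between 424207 and 549490 per library, and 12000 to 14156 genes reached 1 FPKM. The tissue carried proximal tubule markers: the summed FPKM of 6 such genes was 1618.42 to 4348.30 in sham libraries. The summed FPKM of 3 adrenal markers was at most 2.36 in any library, nearly all of it Star, which was called higher in UIR at days 1 and 21, while Cyp11b1 was at most 0.08. Of the skeletal muscle markers, Ckm was at most 0.05 FPKM, and Acta1 was 1.89 to 5.01 in UIR against 0.05 to 0.18 in sham kidneys at day 3 (log2 fold 1.78, limma adjusted p = 1.3e-05). Sham kidneys at day 1 stood apart from later sham kidneys, with 6258 genes (42.5% of those tested) called between sham days 1 and 3 and 5 genes (0.034%) between days 3 and 21. The UIR library numbered replicate 3 had the lowest proximal marker sum of its group at each day: 636.36 FPKM against 1597.95 and 1237.87 at day 1, 188.41 against 284.40 and 314.66 at day 3, and 33.53 against 164.84 and 259.82 at day 21.

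By day 21 after UIR, Fxyd5 and Fxyd4 had risen and the other 5 genes had fallen. At that day Fxyd5 was 20.3-fold above sham, Car4 25.4-fold below, Slc9a3 9.83-fold below, Slc4a4 8.31-fold below, Fxyd2 6.72-fold below and Atp1b1 2.58-fold below, on the scale of FPKM plus 1. At day 1, 2 of the 7 genes were called higher in UIR and 2 lower by limma at an adjusted p under 0.05, where 59.6% of all genes tested were called, 28.5% higher and 31.1% lower. At day 3 the calls were 2 higher and 4 lower, against 57.6% and 17.9% of all genes (75.5% in either direction). At day 21 they were 2 higher and 5 lower, against 60.7% and 20.1% (80.8% in either direction). The 3 UIR and 3 sham values did not overlap for 5 of the 7 genes at day 1 and for all 7 at days 3 and 21. Over all genes tested 61.3%, 78.7% and 84.3% did not overlap, so a lack of overlap is common here. The median log2 fold of the 7 genes was 0.32, -0.69 and -2.75 at days 1, 3 and 21, and that of all genes tested was -0.03, 0.44 and 0.53. The shift of all genes at days 3 and 21 depended on scaling: centring libraries on the median of ratios set it to 0.03 at both days, and rescaling to a common sum set it to 0.75 and 0.76. The share of calls that were higher moved with it, from 76.3% at day 3 to 51.3% with centring and 84.1% with a common sum.

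**Figure D1:**
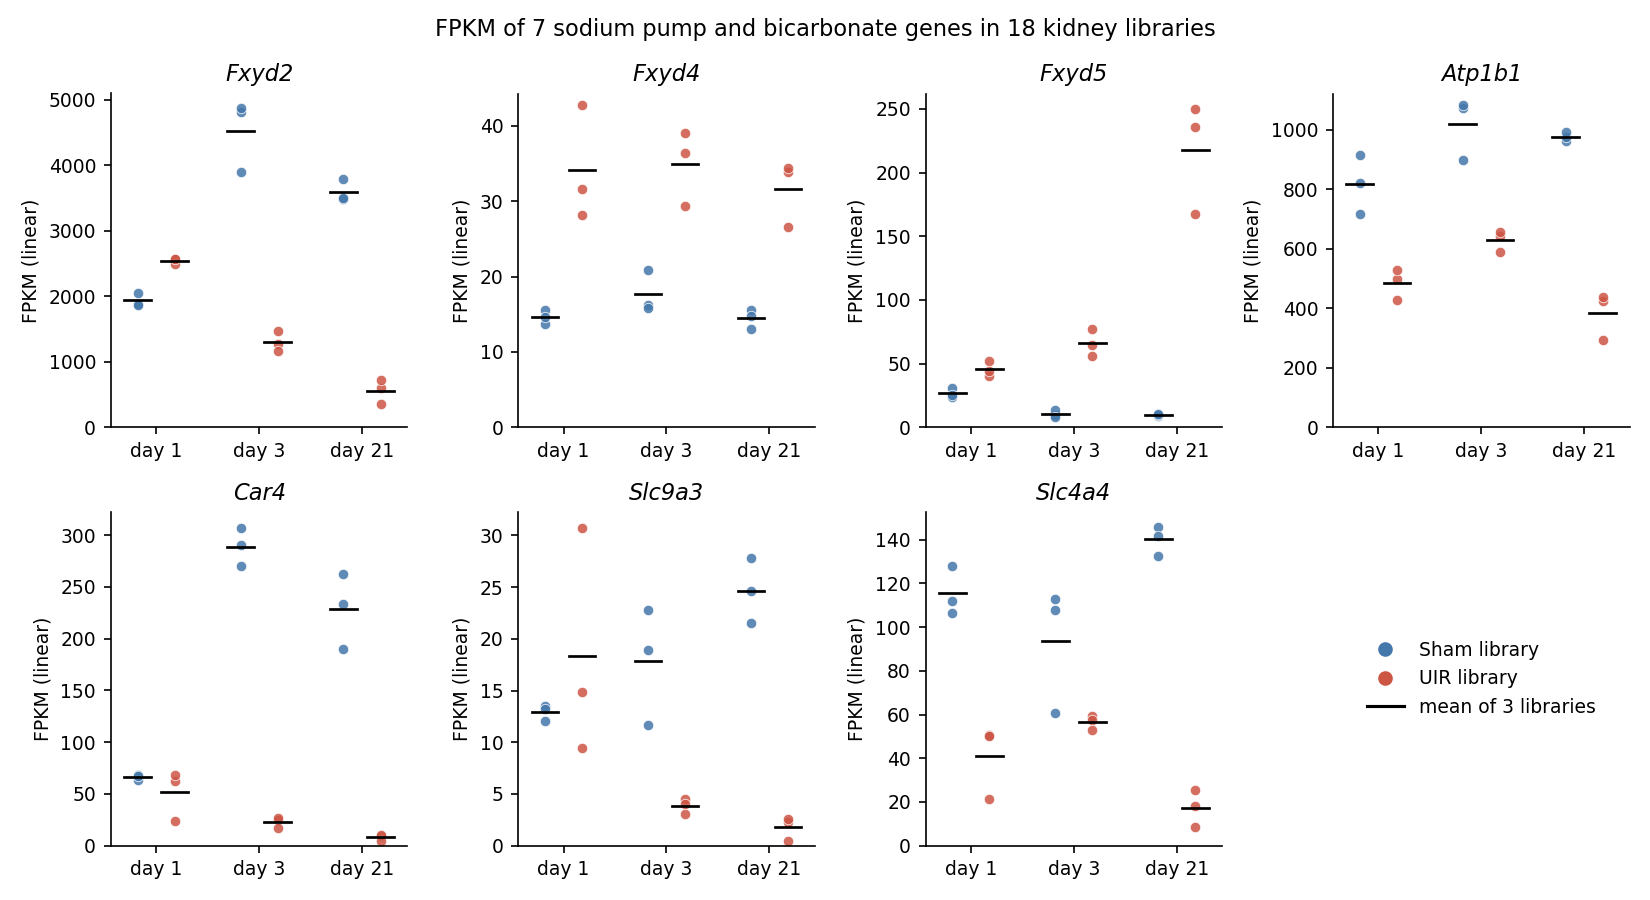
FPKM of each gene in every library, on linear axes, with sham libraries in blue, UIR libraries in red and a bar at the mean of 3 libraries. Fxyd5 reached 167.39 to 250.03 FPKM in UIR kidneys at day 21 against 8.87 to 10.25 in sham, while Car4 was 4.82 to 10.61 against 190.22 to 262.52.

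In sham kidneys Fxyd2 and Atp1b1 had the highest levels of the 7 at every day, with no library of 1 overlapping the other. Car4 and Slc4a4 followed, and Slc9a3, Fxyd4 and Fxyd5 filled the lowest places, with means between 9.62 and 26.8 FPKM. In UIR kidneys Fxyd2 and Atp1b1 kept the first places, but their libraries overlapped at day 21. Fxyd5 moved from the lowest mean in sham kidneys at days 3 and 21 to the third highest in UIR kidneys at those days, where its libraries overlapped those of Slc4a4 at day 3 and of no neighbour at day 21. Slc9a3 had the lowest mean in UIR kidneys at all 3 days.

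The level of the 7 genes also changed with time within an arm. From sham day 1 to day 3, 2 genes were higher (Fxyd2 and Car4) and 1 lower (Fxyd5) by limma, where 12.8% and 29.7% of all genes were called. From sham day 1 to day 21 the same 3 genes were called, where 12.3% of all genes were called higher and 27.2% lower (39.4% in either direction). Between sham days 3 and 21 no gene of the 7 passed (limma, unadjusted p from 0.083 to 0.70), where 2 genes in all were called higher (0.0136%) and 3 lower (0.0204%).

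In UIR kidneys 2 of the 7 genes were higher at day 3 than at day 1 (Fxyd5 and Atp1b1) and 3 lower (Fxyd2, Car4 and Slc9a3), where 49.4% of all genes were called higher and 17.1% lower (66.5% in either direction). From day 3 to day 21, Fxyd5 was higher and 5 were lower (all but Fxyd4), where 32.2% and 24% of all genes were called (56.2% in either direction). From day 1 to day 21 the counts were again 1 and 5, where 53.1% and 21.2% were called (74.3% in either direction). Fxyd4 had no called change between UIR days (limma, log2 differences of 0.04, -0.14 and -0.10).

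The UIR effect, the signed log2 fold of UIR minus sham, was also tested as a difference between days. Lower means a move toward more negative values, as for Car4 with -0.48 at day 1 and -3.61 at day 3. The effect was higher at day 3 than at day 1 for Fxyd5 and lower for 3 genes. Over all genes 50.1% and 12.7% were called so (62.9% in either direction). From day 3 to day 21 the effect was higher for Fxyd5 and lower for 4 genes, where 26.1% and 20.2% were called (46.2% in either direction). From day 1 to day 21 it was higher for Fxyd5 and lower for 5 genes, where 54.1% and 16.3% were called (70.4% in either direction).

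Atp1b1 encodes the beta-1 subunit, which the pump needs for folding and delivery to the membrane. Its sham libraries had an FPKM of 716.10, 914.99 and 822.70 at day 1, 1075.32, 900.21 and 1083.17 at day 3, and 961.47, 976.60 and 994.36 at day 21. The UIR libraries had 499.58, 427.16 and 530.09 at day 1, 590.83, 641.59 and 655.44 at day 3, and 423.38, 436.29 and 293.25 at day 21. Every UIR library lay below every sham library of its day. Its log2 fold was -0.75 ± 0.14 (SE) at day 1, -0.69 ± 0.14 at day 3 and -1.37 ± 0.14 at day 21, with limma adjusted p of 3.2e-04, 4.1e-04 and 2.3e-07. In bulk tissue, fewer cells of a type and less RNA per cell cannot be told apart. The day 3 value was -0.30 with an adjusted p of 0.12 by limma after quantile normalization, and -1.23 after centring on the median of ratios.

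Between days, the UIR level of Atp1b1 rose from day 1 to day 3 by 0.38 on the log2 scale (limma adjusted p = 0.03) and then fell by 0.73 to day 21 (adjusted p = 4.4e-04). Its sham level had no called change between days.

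Atp1b1 made up most beta subunit message in every group, but less of it after UIR. In sham kidneys it took 93.6% ± 0.723 (SD, n = 3) of summed Atp1b FPKM on day 1, with 95.4% ± 0.726 on day 3 and 95.1% ± 0.349 on day 21. In UIR kidneys its share was 84.4% ± 1.55, 88.2% ± 0.450 and 75.7% ± 3.97. Atp1b3, which encodes the beta-3 subunit, had 5.29%, 3.97% and 4.22% in sham and 14.9%, 10.1% and 16.6% in UIR kidneys at the same days. Atp1b2, the beta-2 subunit gene, had a mean share of 7.70% in UIR kidneys at day 21 and at most 1.13% as a mean in any sham group.

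Atp1b3 was the subunit gene that rose while Atp1b1 fell at each day. Its FPKM was 45.02, 46.22 and 46.27 in sham and 85.71, 86.92 and 81.60 in UIR libraries at day 1, and 43.62, 45.89 and 40.53 against 91.31, 76.21 and 79.69 at day 21. The log2 fold was 0.87 ± 0.08, 0.77 ± 0.08 and 0.91 ± 0.08 at days 1, 3 and 21 (limma adjusted p = 9.6e-08, 1.4e-07 and 1.2e-08). The within-library log2 ratio of Atp1b3 to Atp1b1 was 1.62, 1.46 and 2.28 higher in UIR than in sham kidneys at the 3 days. No UIR library overlapped a sham library in that ratio, and the exact permutation test over all days gave an adjusted p of 4.4e-04 over the 7 ratios tested.

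Fxyd2 encodes the gamma subunit, a pump regulator found along much of the kidney tubule. Its FPKM in the sham libraries was 1886.97, 2048.95 and 1864.62 at day 1, 4810.26, 4866.75 and 3890.42 at day 3, and 3483.42, 3499.15 and 3782.18 at day 21. In the UIR libraries it was 2563.47, 2484.73 and 2570.69 at day 1, 1267.88, 1461.98 and 1167.31 at day 3, and 603.48, 720.47 and 348.17 at day 21. The UIR libraries lay above the sham libraries at day 1 and below them at days 3 and 21, with no overlap at any day. The log2 fold was 0.39 ± 0.20 at day 1, which did not pass (limma adjusted p = 0.098), -1.80 ± 0.20 at day 3 (5.4e-07) and -2.75 ± 0.20 at day 21 (2.5e-09).

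The sham level of Fxyd2 itself changed. It was 1.22 ± 0.20 higher on the log2 scale at day 3 than at day 1 (limma adjusted p = 1.5e-04) and 0.89 higher at day 21 than at day 1 (adjusted p = 0.0021). Against sham kidneys of days 3 and 21, the day 1 UIR level was lower, with a log2 fold of -0.66 ± 0.17 (limma adjusted p = 0.0026), so the direction at day 1 depended on the control. It also depended on scaling, with -0.14 against day 1 sham after quantile normalization (limma adjusted p = 0.6). In UIR kidneys the level fell by 0.97 from day 1 to day 3 and by 1.28 from day 3 to day 21 on the log2 scale (limma adjusted p = 4.4e-04 and 4.7e-05).

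Markers of distal convoluted tubule, where Fxyd2 is known to be high, were in sum also below sham at days 3 and 21. At day 1 their sums overlapped sham, unlike Fxyd2. The summed FPKM of 3 such markers was 192 (175.88 to 219.45), 288.2 (230.03 to 341.16) and 313.5 (252.34 to 388.33) in sham kidneys at days 1, 3 and 21. After UIR it was 203 (166.36 to 270.71), 95.6 (77.62 to 109.04) and 44.5 (27.60 to 53.81). Of the 3, 1 was called higher at day 1, 2 lower at day 3, and 2 lower and 1 higher at day 21, and Pvalb was at 0 in some UIR libraries of days 3 and 21. The higher one at both days was Trpm6 (log2 fold 1.72 and 1.13), and Slc12a3 made up most of each sum. Of 4 thick ascending limb markers, 1 was called higher and 2 lower at day 3, and 1 higher and 1 lower at day 21. The part of distal or proximal cell content in the Fxyd2 result was not tested.

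Fxyd5 encodes dysadherin, an FXYD protein that binds the pump and is also known for its effect on cell adhesion. In sham kidneys the 3 libraries had an FPKM of 31.02, 23.95 and 25.39 at day 1, 9.95, 13.26 and 8.16 at day 3, and 8.87, 9.75 and 10.25 at day 21. After UIR they had 40.17, 51.79 and 44.28 at day 1, 77.19, 64.49 and 56.29 at day 3, and 235.79, 167.39 and 250.03 at day 21. Every UIR library lay above every sham library of its day. This gave a log2 fold of 0.74 ± 0.17 at day 1, 2.56 ± 0.17 at day 3 and 4.34 ± 0.17 at day 21 (limma adjusted p = 0.0017, 2.3e-09 and 9.1e-12).

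Sham Fxyd5 was higher at day 1 than later, with -1.29 ± 0.17 at day 3 and -1.38 at day 21 against day 1 (limma adjusted p = 2.9e-05 and 1.7e-05). Against sham kidneys of days 3 and 21 the day 1 UIR level was 2.08 ± 0.15 higher on the log2 scale (limma adjusted p = 5.1e-09). Macrophage and fibroblast markers were also above sham at days 3 and 21. The summed FPKM of 5 macrophage markers was 40.6 (35.60 to 45.67) in sham and 286.4 (185.42 to 393.41) in UIR kidneys at day 3, and 41.6 (37.10 to 45.12) against 1437 (1226.12 to 1737.56) at day 21, with 5 of 5 called higher at both days. For 5 fibroblast markers the sums were 33.3 (22.35 to 44.34) against 225.9 (99.18 to 354.28) at day 3 and 36.9 (32.44 to 44.89) against 1050 (985.92 to 1117.20) at day 21, again with 5 of 5 called higher. At both days every UIR library had higher sums than every sham library, and no marker of these lists was at 0. At day 1, where Fxyd5 was already higher, the macrophage sum was 56.8 in sham and 48.7 in UIR kidneys and the fibroblast sum 45.4 and 34.4. The sum of 4 neutrophil markers was higher at that day, with 4 of 4 called higher. It was 174.9 (113.56 to 206.91) in UIR against 46.0 (17.81 to 66.81) in sham kidneys. At days 3 and 21 the neutrophil sum was 21.2 and 40.7 in UIR against 5.25 and 2.25 in sham kidneys. At both days 3 of 4 were called higher. In UIR kidneys this sum was highest at day 1, unlike Fxyd5. Lymphocyte and endothelial marker sums were also above sham at day 21, with 53.4 against 2.57 and 185.3 against 74.9. Of 4 tested in each list, 4 and 3 were called higher at that day. Beyond these values, the part of such cells in the Fxyd5 result was not tested.

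Fxyd4 encodes CHIF, the corticosteroid hormone-induced factor, a pump regulator known from the collecting duct. Its FPKM in the sham libraries was 13.71, 15.55 and 14.65 at day 1, 16.26, 20.84 and 15.84 at day 3, and 15.55, 13.10 and 14.76 at day 21. In the UIR libraries it was 31.57, 28.23 and 42.83 at day 1, 29.34, 36.48 and 39.01 at day 3, and 33.89, 34.44 and 26.64 at day 21. All UIR libraries lay above all sham libraries, also across days. The log2 fold was 1.15 ± 0.15, 0.95 ± 0.15 and 1.07 ± 0.15 (limma adjusted p = 8.6e-06, 3.2e-05 and 6.8e-06). With centring on the median of ratios it was 0.43 at day 3 and 0.48 at day 21, called at both (limma adjusted p = 0.016 and 0.0083).

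The rise of Fxyd4 was in place at day 1, and its effect at the later days was not shown to differ from that. The effect at day 21 minus that at day 1 was -0.08 with a 95% interval of -0.54 to 0.38, and the day 3 minus day 1 difference was -0.20 with an interval of -0.66 to 0.25. After centring on the median of ratios these differences were -0.72 and -0.76, both called by limma (adjusted p = 0.0064 and 0.0057). Markers of collecting duct principal cells went the other way in sum at days 3 and 21. Their summed FPKM over 4 genes was 196.8, 173.6 and 131.5 in sham and 181, 92.2 and 29.5 in UIR kidneys at days 1, 3 and 21. The sums overlapped at day 1 (179.53 to 216.66 in sham, 151.55 to 209.53 in UIR kidneys) and not at the later days. Aqp2, the vasopressin-regulated water channel, had a log2 fold of -0.96, -1.10 and -3.51, and Aqp3, the basolateral water channel, 0.91, -1.02 and -2.30. Of these 4 markers 1, 0 and 0 were called higher and 3, 3 and 4 lower at the 3 days, and none was at 0. Against sham kidneys of days 3 and 21, 1 was higher at day 1 (Aqp3, 0.84) and 2 were lower. Aqp2 did not pass in that comparison (-0.13, limma adjusted p = 0.64). The summed FPKM of 4 intercalated cell markers, the other cell of that segment, was 50.9 (45.84 to 55.54), 85.8 (74.84 to 100.71) and 81.4 (74.29 to 92.68) in sham kidneys. After UIR it was 129.4 (74.81 to 167.39), 87.9 (84.17 to 90.89) and 122.6 (116.99 to 126.03), with 3, 1 and 2 of 4 called higher and 1, 0 and 1 lower. The lower one was Slc4a1 at both days (-0.92 and -1.47, limma adjusted p = 0.024 and 6.0e-04). The part of collecting duct cells in the Fxyd4 result was not tested.

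The make-up of FXYD message changed with time. Fxyd2 was 97.2% ± 0.204 (SD, n = 3) of the summed FPKM of Fxyd1 to Fxyd7 in sham kidneys at day 1, 99.2% ± 0.0904 at day 3 and 99.1% ± 0.0511 at day 21. In UIR kidneys its share was 96.7% ± 0.362, 91.5% ± 0.828 and 60.4% ± 11.5, and the lowest library at day 21 held 48.0%. Fxyd5 took 25.1% ± 9.04 of the sum in UIR kidneys at day 21, from 16.5% to 34.5% in single libraries, and 0.266% ± 0.0121 in sham. Fxyd1, which encodes phospholemman, took 8.84% ± 1.79 and Fxyd4 3.52% in the same UIR kidneys.

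**Figure D2:**
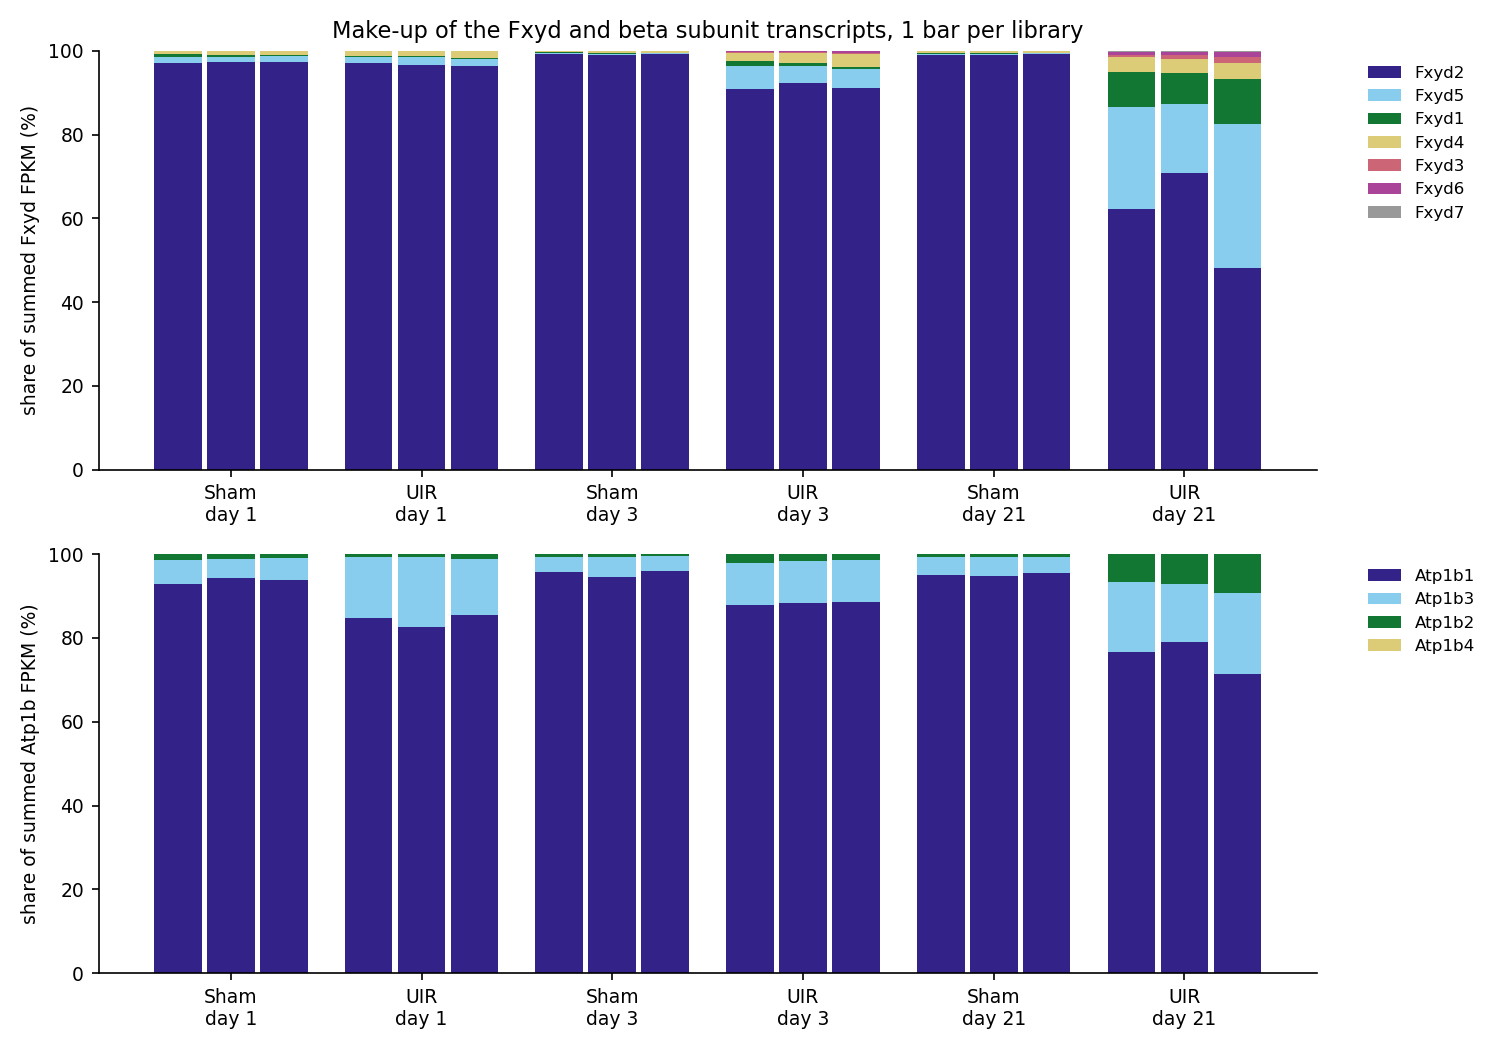
Share of summed FPKM taken by each Fxyd gene (top) and each Atp1b gene (bottom) in percent, 1 bar per library in 6 groups. Fxyd2 holds over 90% in all libraries except the 3 UIR libraries at day 21 (48.0% to 70.9%), and Atp1b3 and Atp1b2 widen in the UIR bars.

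Within libraries, where their scaling largely cancels, Fxyd5 gained on Fxyd2 by 0.35 log2 units at day 1, 4.36 at day 3 and 7.09 at day 21. The groups overlapped at day 1 (exact permutation p = 0.2) and not at days 3 and 21 (exact p = 0.1, the smallest that 3 against 3 libraries allow). Over all days the difference was 3.93, with an adjusted p of 7.0e-04 by the exact permutation test within days. Fxyd4 gained on Fxyd2 by 0.76, 2.74 and 3.82, or 2.44 over all days (exact permutation, adjusted p = 4.4e-04, from the smallest p the arrangements can give).

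**Figure D3:**
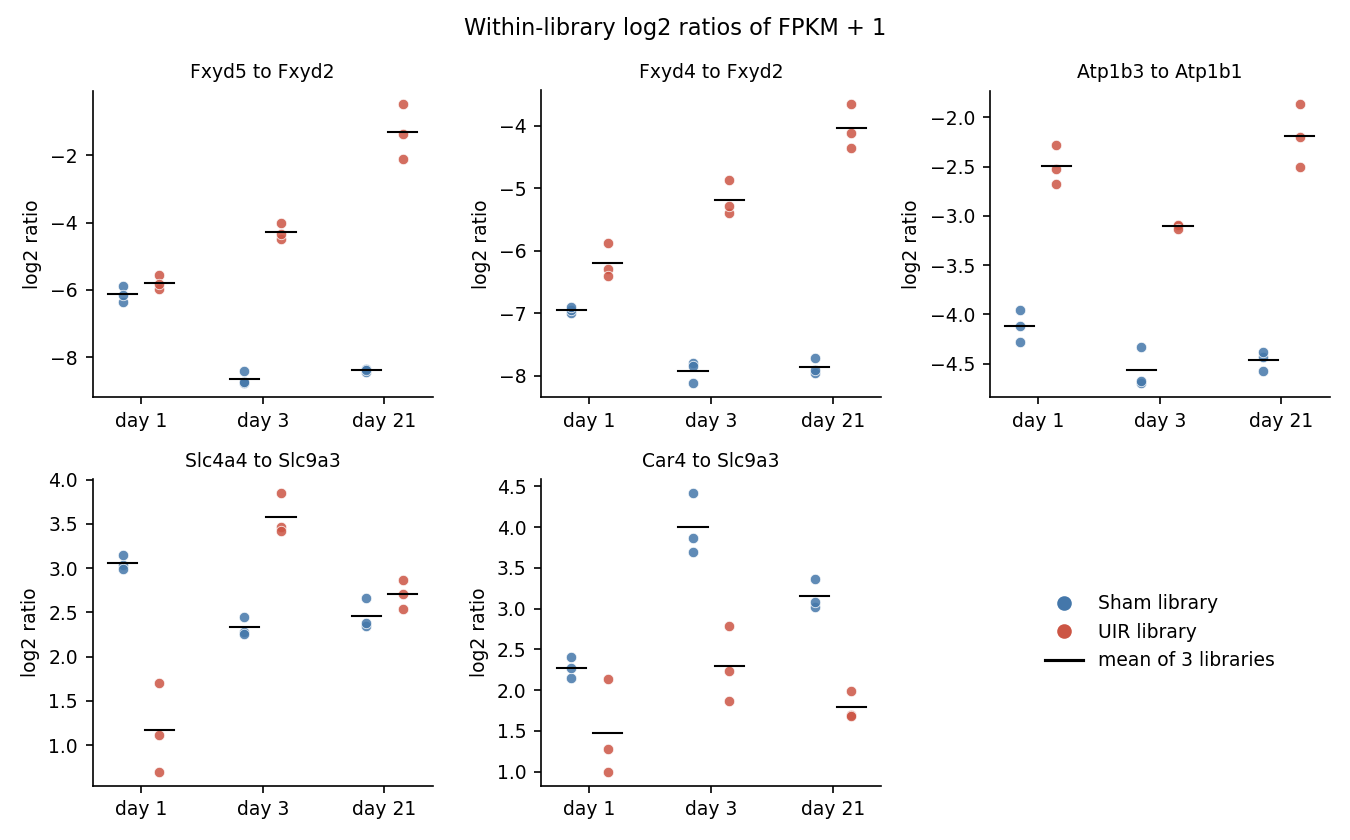
Log2 ratio of FPKM plus 1 between gene pairs within each library, with sham libraries in blue, UIR libraries in red and a bar at the mean of 3. The Fxyd5 to Fxyd2 ratio in UIR kidneys climbs from a mean of -5.78 at day 1 to -1.31 at day 21, while sham means stay between -6.13 and -8.64.

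The promoters of the 3 bicarbonate genes are shown because these genes were all far below sham at day 21. Sequences are from RefSeq on GRCm38.p6, the 250 bases before each annotated start, 5′ to 3′ along the gene, and 6 of the 7 genes matched a window, Slc4a4 with 2 starts. Capitals mark matches to 6 motifs searched on both strands. The half-sites of the hepatocyte factors were searched as GTTAAT for HNF1 and as CAAAGT for HNF4. The AP-1 site was searched as TGANTCA. The inverted CCAAT box was searched with the letters ATTGG on either strand. The TATA box was searched as TATAAA and the E-box as CACGTG. None of the 6 contains another.
Slc9a3, chr13:74121163-74121412, plus strand: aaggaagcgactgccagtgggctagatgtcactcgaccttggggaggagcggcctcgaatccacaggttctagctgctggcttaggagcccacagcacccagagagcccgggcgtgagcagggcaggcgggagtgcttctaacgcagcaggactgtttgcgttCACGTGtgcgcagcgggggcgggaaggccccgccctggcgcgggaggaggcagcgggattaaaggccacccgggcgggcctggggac
Slc4a4 start 1, chr5:88887010-88887259, plus strand: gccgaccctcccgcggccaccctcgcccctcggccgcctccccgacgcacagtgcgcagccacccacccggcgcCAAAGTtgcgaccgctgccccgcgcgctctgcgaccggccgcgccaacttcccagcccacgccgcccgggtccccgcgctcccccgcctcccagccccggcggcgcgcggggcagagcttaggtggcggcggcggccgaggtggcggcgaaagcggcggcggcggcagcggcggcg
Slc4a4 start 2, chr5:89027716-89027965, plus strand: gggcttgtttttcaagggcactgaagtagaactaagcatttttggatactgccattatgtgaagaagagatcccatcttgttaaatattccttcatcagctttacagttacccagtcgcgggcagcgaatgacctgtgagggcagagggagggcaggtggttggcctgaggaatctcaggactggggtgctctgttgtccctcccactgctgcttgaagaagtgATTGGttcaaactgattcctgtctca
Car4, chr11:84957504-84957753, plus strand: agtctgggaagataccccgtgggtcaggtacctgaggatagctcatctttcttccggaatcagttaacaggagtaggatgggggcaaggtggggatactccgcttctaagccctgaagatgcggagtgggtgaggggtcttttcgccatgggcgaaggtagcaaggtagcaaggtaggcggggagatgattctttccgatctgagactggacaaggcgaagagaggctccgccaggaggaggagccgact

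The Slc9a3 window was 67.6% GC and held 1 E-box, a motif in 6.02% of the 32851 windows searched. The Slc4a4 windows differed: the first was 82% GC with an HNF4 half-site, found in 12.6% of windows, and the second was 48.8% GC with an inverted CCAAT box, found in 33.8%. The Car4 window was 56.4% GC and held none of the 6 motifs, and the median window was 52.4% GC. The deposited values are 1 per gene, so they do not separate the starts of Slc4a4.

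Slc9a3 encodes NHE3, the sodium-proton exchanger of the proximal brush border, through which most filtered bicarbonate is reclaimed. Sham libraries had an FPKM of 12.01, 13.50 and 13.17 at day 1, 18.96, 11.69 and 22.79 at day 3, and 27.79, 21.57 and 24.58 at day 21. UIR libraries had 30.75, 14.83 and 9.40 at day 1, 4.48, 3.06 and 4.03 at day 3, and 2.29, 2.62 and 0.47 at day 21. The UIR libraries spread to both sides of sham at day 1 and lay below every sham library at days 3 and 21. Slc9a3 had a log2 fold of 0.32 ± 0.36 at day 1 (limma adjusted p = 0.46), -1.92 ± 0.36 at day 3 (1.6e-04) and -3.30 ± 0.36 at day 21 (3.4e-07). Without UIR replicate 1 at day 1 the day 1 value was -0.11, and without replicate 3 it was 0.69, neither called.

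Car4 encodes carbonic anhydrase 4, the enzyme anchored on the outer face of the membrane. Its FPKM in the sham libraries was 68.36, 63.15 and 67.48 at day 1, 290.08, 269.73 and 307.25 at day 3, and 233.20, 190.22 and 262.52 at day 21. In the UIR libraries it was 62.61, 68.62 and 24.27 at day 1, 24.75, 27.04 and 17.41 at day 3, and 9.69, 10.61 and 4.82 at day 21. The groups overlapped at day 1, where replicate 3 alone was far below, and did not at days 3 and 21. The log2 fold was -0.48 ± 0.31 at day 1 (limma adjusted p = 0.2), -3.61 ± 0.31 at day 3 (3.5e-08) and -4.67 ± 0.31 at day 21 (1.1e-09). Without UIR replicate 3 the day 1 value was -0.02.

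Sham Car4 was itself low at day 1, and rose by 2.11 ± 0.31 to day 3 on the log2 scale (limma adjusted p = 7.1e-05). Against sham kidneys of days 3 and 21 the day 1 UIR level was lower, with a log2 fold of -2.41 ± 0.27 (limma adjusted p = 7.5e-07). In UIR kidneys the level went on falling, by 1.02 from day 1 to day 3 and by 1.40 from day 3 to day 21 (limma adjusted p = 0.009 and 0.0013).

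Slc4a4 encodes NBCe1, the electrogenic cotransporter that carries bicarbonate and sodium out across the basolateral membrane. The sham values were 106.32, 128.01 and 111.93 at day 1, 107.75, 60.51 and 113.03 at day 3, and 145.81, 141.89 and 132.57 at day 21, in FPKM. The UIR values were 50.75, 50.34 and 21.57 at day 1, 59.48, 57.55 and 53.02 at day 3, and 18.09, 25.55 and 8.64 at day 21. Every UIR library lay below every sham library of its day, though narrowly at day 3, where sham replicate 2 (60.51) was low. Slc4a4 had a log2 fold of -1.57 ± 0.34 at day 1 (limma adjusted p = 8.4e-04), -0.67 ± 0.34 at day 3 (0.085) and -3.05 ± 0.34 at day 21 (4.0e-07). Without sham replicate 2 the day 3 value was -0.95 (limma adjusted p = 0.025), and after centring on the median of ratios it was -1.19 (0.0055).

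The 3 bicarbonate genes did not move in step. Slc4a4 was the 1 of them called at day 1 against sham of that day. Against sham kidneys of days 3 and 21, Car4 was called as well (-2.41, limma adjusted p = 7.5e-07). The within-library log2 ratio of Slc4a4 to Slc9a3 had UIR minus sham differences of -1.89, 1.25 and 0.24 at days 1, 3 and 21. Over all days that ratio had a difference of -0.13 (exact permutation within days, adjusted p = 0.71). In UIR kidneys at day 21 Slc9a3 was 2.29, 2.62 and 0.47 FPKM, near the 1 added to each value before the ratio. The added 1 weighs more on Slc9a3 than on Slc4a4 there. The day 21 and all-day differences therefore depend on it and do not show that the 2 genes fell equally. On the scale of FPKM plus 1, Car4 was further below sham than Slc9a3 at days 3 and 21. At day 1 neither gene was called against sham of that day. The UIR minus sham difference in the log2 ratio of Car4 to Slc9a3 was -0.80, -1.69 and -1.37 at the 3 days and -1.29 over all days (exact permutation, adjusted p = 4.4e-04). The size of this difference at day 21 depends on the added 1 in the same way.

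**Figure D4:**
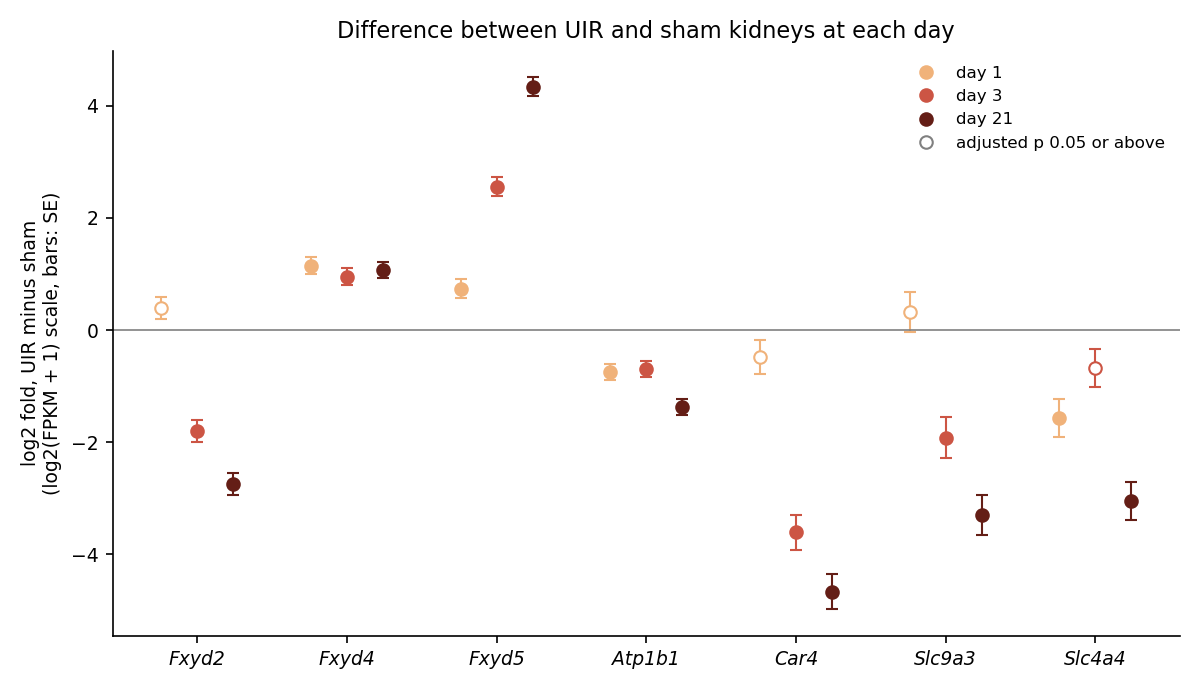
Log2 fold of UIR against sham for each gene at days 1, 3 and 21, on the log2(FPKM + 1) scale with bars for the SE; open points did not pass the limma threshold. Fxyd5 climbs to 4.34, Fxyd4 stays near 1, and Car4 reaches -4.67 at day 21.

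Proximal tubule markers were also below sham at days 3 and 21. The summed FPKM of 6 markers had means of 1753, 3650 and 4177 in sham kidneys at days 1, 3 and 21, and of 1157, 262.5 and 152.7 in UIR kidneys, with ranges of 636.36 to 1597.95, 188.41 to 314.66 and 33.53 to 259.82. Of these markers 2, 6 and 6 of 6 were called lower at the 3 days, and none was at 0. Slc34a1 made up most of the mean sum in each group. From day 1 to day 3 in UIR kidneys, 1 of the 6 was called higher and 3 lower, where 49.4% and 17.1% of all genes were called. Over that time the means of Lrp2 (28.6 to 41.2 FPKM) and Cubn (10.8 to 19.0) rose while the sum fell. The UIR library with the lowest sum of its group also had the lowest Car4 and Slc4a4 at all 3 days, and the lowest Slc9a3 at days 1 and 21 but not at day 3 (4.03 against 3.06 in replicate 2). The part of proximal cell content in these results was not tested. Without replicate 3 of UIR day 21, the day 21 log2 folds were -4.35 for Car4, -2.89 for Slc9a3 and -2.65 for Slc4a4, all called.

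Between sham days 3 and 21 only 5 genes were called, which does not show that the other genes were equal. Against the sham kidneys of both days, UIR day 1 had 2 of the 7 genes higher and 4 lower. Of all genes tested 39.6% and 32% were called so (71.5% in either direction). Slc9a3 was the gene not called in that comparison (log2 fold -0.31 ± 0.31, limma adjusted p = 0.38). The log2 fold was -1.54 ± 0.29 for Slc4a4, -1.04 ± 0.12 for Atp1b1 and 1.04 ± 0.13 for Fxyd4 (limma adjusted p = 1.9e-04, 1.5e-06 and 2.9e-06). The UIR libraries of day 1 are the same in both comparisons, so these are not independent of the day 1 values above.

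The other beta subunit and FXYD genes tested were all higher in UIR kidneys by day 21. Of 7 such genes 6 were tested, and Atp1b4 did not pass the filter. At day 1, 1 was higher (Atp1b3) and 3 were lower (Atp1b2, Fxyd1 and Fxyd6), with a median log2 fold of -0.25. Against sham kidneys of days 3 and 21, Atp1b3 was still higher (0.97) and Atp1b2 lower (-0.51), while Fxyd1 (-0.42, limma adjusted p = 0.088) and Fxyd6 (0.01, 0.96) did not pass. At day 3, 4 were higher and Fxyd1 and Fxyd7 did not pass, with a median of 0.80, where 57.6% of all genes were called higher, so this count is near that share. The day 3 counts were 5 higher with a common sum, 3 after centring on the median of ratios, and 3 higher and 1 lower after quantile normalization. At day 21 all 6 were higher, with a median of 1.99, where 60.7% of all genes were called higher, and the count was the same with each of the 3 other scalings. Fxyd1 rose from 6.85 ± 2.18 (SD, n = 3) in sham to 78.0 ± 2.91 FPKM in UIR kidneys at day 21 (log2 fold 3.37 ± 0.24, limma adjusted p = 2.5e-09). Atp1b2 was lower at day 1 (-0.99) and higher at day 21 (2.27). Fxyd3, with sham means under 1 FPKM, had a log2 fold of 2.98 at day 21 and a UIR mean of 7.96 FPKM. Fxyd6 was lower at day 1 (-0.44) and higher at days 3 and 21 (1.18 and 1.71).

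Other carbonic anhydrases and transporters of protons and bicarbonate split. Of 13 tested of 15, 5 were higher and 2 lower at day 1, 7 and 5 at day 3, and 5 and 6 at day 21, with medians of 0.30, 0.33 and -0.26. Over all genes tested 28.5%, 57.6% and 60.7% were called higher and 31.1%, 17.9% and 20.1% lower, so the higher count at day 3 is near that share. With later sham kidneys as the control, 6 were higher and 5 lower at day 1. After centring on the median of ratios the medians at days 3 and 21 were -0.20 and -0.83, and with a common sum 0.62 and -0.08, so the sign at day 3 depended on the scaling. Car14, a membrane carbonic anhydrase, was far lower at the same days as Car4. Its mean was 79.1 ± 15.5 FPKM in sham and 2.67 ± 0.275 in UIR kidneys at day 3, and 69.7 ± 5.31 against 1.68 ± 1.01 at day 21. Its log2 fold was -4.43 ± 0.34 and -4.79 ± 0.34 (limma adjusted p = 7.7e-09 and 1.9e-09), and at day 1 -0.65 ± 0.34 (0.11).

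Car2, the cytosolic carbonic anhydrase, ran the other way early. Its mean went from 109.6 ± 21.5 in sham to 426.7 ± 16.4 FPKM in UIR kidneys at day 1, a log2 fold of 1.97 ± 0.12 (limma adjusted p = 2.4e-09). At day 21 it was lower, with 163.8 ± 8.16 against 66.3 ± 8.19 FPKM and a log2 fold of -1.30 ± 0.12 (adjusted p = 4.2e-08). Car13, another cytosolic form, was higher at all 3 days (1.44, 2.90 and 1.85). Car15 was higher at day 1 (0.85) and lower at days 3 and 21 (-1.34 and -1.79), and Car12 was lower at days 3 and 21 (-0.82 and -1.97). Of the exchangers, Slc9a4 was higher at days 3 and 21 (1.34 and 2.29), and Slc9a8 was lower (-1.38 and -1.31). The bicarbonate transporter gene Slc4a7 was higher at all 3 days (0.61, 1.10 and 1.12), with 0.20, not called, at day 21 after quantile normalization. As deposited, Slc4a2 was higher at days 3 and 21 (1.02 and 0.94), and so was Slc4a3 (0.53 and 1.08). The anion exchanger Slc26a6 and the mitochondrial anhydrase Car5b were lower at day 1 (-1.33 and -0.61). Car5b was higher at day 3 (0.53, and 0.01, not called, after centring on the median of ratios) and lower again at day 21 (-0.47, and -0.30, not called, with a common sum).

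Among genes that act on NHE3, more were called lower than higher at each day. Of 8 tested, 1 was higher and 6 lower at day 1, 2 and 4 at day 3, and 3 and 4 at day 21, with medians of -0.70, -0.32 and -0.36. With a common sum the counts were 3 and 3 at days 3 and 21. Over all genes 28.5%, 57.6% and 60.7% were called higher and 31.1%, 17.9% and 20.1% lower. With later sham kidneys as the control, 2 were higher and 6 lower at day 1, where 39.6% and 32% of all genes were called. Pdzk1, a scaffold of the brush border, was lower at each day (-1.20, -1.96 and -3.71, limma adjusted p = 0.008, 1.1e-04 and 6.9e-08). Pth1r, the parathyroid hormone receptor, was also lower (-1.35, -1.04 and -1.93). Slc9a3r1, the scaffold NHERF1, was lower at day 3 as deposited (-0.56) and at day 21 (-1.58 ± 0.11, adjusted p = 1.7e-09 by limma). At day 1 it did not pass (-0.03), but was lower against sham kidneys of days 3 and 21 (-1.05). Slc9a3r2 was lower at day 1 (-1.18) and higher at day 21 (1.39). Ezr, which encodes the linker protein ezrin, went from 139.2 ± 13.8 to 776.4 ± 24.5 FPKM at day 1 (log2 fold 2.48 ± 0.08, limma adjusted p = 2.0e-11). At day 21 Ezr was 0.26 higher as deposited and had -0.36 after centring on the median of ratios. Agtr1a, the angiotensin receptor, was lower at day 1 (-0.59, and -1.78 against sham kidneys of days 3 and 21). It was also lower at day 3 (-0.62, with -0.36, not called, on a common sum). Chp1, a binding partner of these exchangers, was lower at days 1 and 21 (-0.56 and -0.37, the latter -0.18 and not called on a common sum). Relative to sham kidneys of days 3 and 21, day 1 Chp1 was instead higher (0.65, limma adjusted p = 5.5e-06). Dpp4, a peptidase that binds NHE3, was lower at day 1 (-0.81) and higher at day 21 (1.22). At day 3 Dpp4 was 0.37 higher as deposited and not called after centring, with -0.13.

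Ammonia production in proximal cells makes new bicarbonate, and 3 genes listed for it were lower than sham of the same day at each day as deposited. Slc38a3, a glutamine transporter, had a log2 fold of -4.96 ± 0.29, -3.35 ± 0.29 and -2.97 ± 0.29. Its UIR means were 1.14, 0.56 and 0.67 FPKM, near the added 1, so the sizes of these folds depend on it. Pck1, which turns the carbon skeleton into glucose precursors, had -2.83 ± 0.41, -5.36 ± 0.41 and -4.69 ± 0.41 (limma adjusted p at most 2.4e-05 for either gene). Glud1, glutamate dehydrogenase, had -1.43, -0.26 and -0.78. Its day 3 value was 0.02 and 0.10, not called, with a common sum and with quantile normalization. Sham levels of Slc38a3, Pck1 and Glud1 were highest at day 1, with means of 65.8, 2369 and 444.5 FPKM against 15.0, 727.4 and 141.7 at day 3. With sham kidneys of days 3 and 21 as the control, day 1 Slc38a3 was still lower (-2.75), Pck1 did not pass (-0.79, limma adjusted p = 0.058) and Glud1 was higher (0.21, adjusted p = 0.016).

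**Figure D5:**
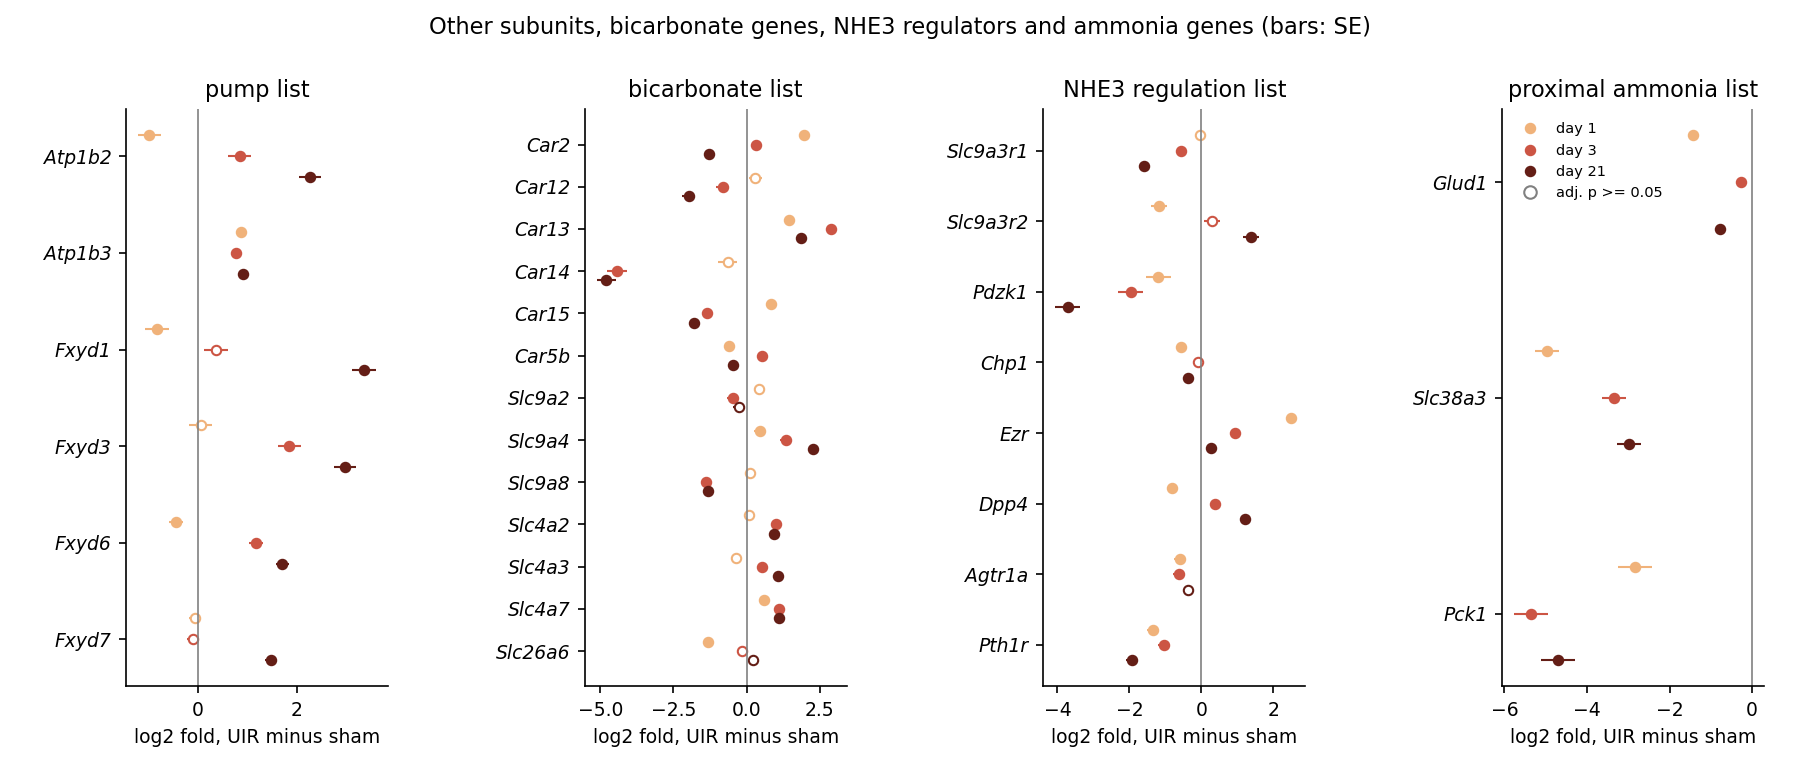
Log2 fold of UIR against sham with SE bars for 6 other beta subunit and FXYD genes, 13 bicarbonate genes, 8 genes that act on NHE3 and 3 proximal ammonia genes at days 1, 3 and 21; open points did not pass the limma threshold. The beta subunit and FXYD genes lie to the right at day 21, while the bicarbonate genes lie on both sides.

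The genes whose pattern over the 18 libraries lay closest to each member were found among 9388 genes with a mean of at least 5 FPKM. The measure was the root mean square difference of log2(FPKM + 1) after each gene's mean was subtracted. For Fxyd2 they were Slc12a3, the sodium-chloride cotransporter counted above among the distal convoluted tubule markers, Pcbd1 and Cycs, at 0.35, 0.36 and 0.36, where Fxyd2 itself varied with an SD of 1.04. For Fxyd5, with an SD of 1.52, they were Tmem173, which encodes STING, Tgfbi and Apobec3, at 0.27, 0.28 and 0.33. For Fxyd4 the 3 closest included Ywhaq and Fgfr2, at 0.19 and 0.20 (SD of Fxyd4 0.56).

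For Atp1b1 the closest genes were Rab3ip, Tns1 and Vdac1, at 0.11, 0.15 and 0.15 (SD 0.54). Those of the 3 bicarbonate genes differed: Pecr, Aspa and Cbs for Car4 (0.24, 0.32 and 0.37), Slc22a4, Enpp6 and Enpp2 for Slc9a3 (0.40, 0.41 and 0.46), and A1cf, Abcg2 and Slc25a15 for Slc4a4 (0.32, 0.32 and 0.35). These points share libraries and their scaling, and the likeness is a description.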

How the data were processed

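Kidney RNA of 18 mouse libraries in 6 groups was analysed. The values are FPKM as deposited by the authors, 1 per gene and library. Per the submitters' processing notes, tools included RSEM 1.2.12, Bowtie2 2.2.5 and HISAT2 2.0.4, with mm9 as genome build. What each did is not stated. Libraries were mapped to groups by their titles. Read counts are not used here. The value of 1 read, seen in low short genes, differed by up to 1.45-fold between libraries. Relative depth from it was 1.40 to 1.45 in UIR and 1.00 to 1.22 in sham libraries at day 3, so depth differed between the arms there. These estimates rest on 4 to 65 genes a library, and absolute depth is unknown.

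Values were tested as log2(FPKM + 1) with limma 3.58.1 in R 4.3.3 (trend, 6 group means, 12 residual degrees of freedom, two-sided, Benjamini-Hochberg over 14716 genes, threshold 0.05). On this scale folds understate changes of low genes. Within-library ratios were tested by exact two-sided permutation of the labels, within day (8000 arrangements over all days), adjusted over 7 ratios. Some list genes, 1 like gene and 2 of the ratios are not reported here. The code was tested on simulated data.

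Named were the 7 genes, pump list genes with a mean of at least 1 FPKM, up to 4 genes of each other list with the largest called change in each direction at each day, and the 3 genes most like each member. Members and lists were chosen with earlier results of these data known. Alternatives were other pseudocounts, filters, scalings, weights, fits within a day, a replicate block and leaving out each library. Coordinates are given for RefSeq promoters (GRCm38.p6) only, since the files use mm9.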

Additional observations from a re-analysis of the deposited data

Results flagged for a closer look

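The UIR effect differed between days for 6 of the 7 genes, by the limma test of the difference itself over all 14716 genes. The log2 effect at day 21 minus that at day 1 was -4.18 for Car4, -3.62 for Slc9a3, -3.14 for Fxyd2, -1.49 for Slc4a4, -0.62 for Atp1b1 and 3.60 for Fxyd5 (limma adjusted p = 6.0e-07, 1.1e-05, 1.0e-07, 0.011, 0.013 and 7.9e-09). Over all genes 16.3% were called lower and 54.1% higher in this difference.

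The effect at day 3 minus that at day 1 was -3.13 for Car4, -2.24 for Slc9a3, -2.19 for Fxyd2 and 1.82 for Fxyd5 (limma adjusted p = 2.0e-05, 0.0013, 7.0e-06 and 1.3e-05). Over all genes 12.7% were called lower and 50.1% higher. Sham kidneys of day 1 enter these differences, and their Fxyd2, Car4 and Fxyd5 levels differed from later sham kidneys.

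The effect at day 21 minus that at day 3 was -2.39 for Slc4a4, -1.38 for Slc9a3, -0.95 for Fxyd2, -0.68 for Atp1b1 and 1.78 for Fxyd5 (limma adjusted p = 8.0e-04, 0.036, 0.012, 0.013 and 3.3e-05). Over all genes 20.2% were called lower and 26.1% higher. The Slc9a3 difference was not called when any 1 of 6 libraries was left out, with values of -0.97 to -1.38: sham day 3 replicate 2, sham day 21 replicates 1 and 3, UIR day 3 replicates 1 and 3, or UIR day 21 replicate 3. The Atp1b1 difference between days 1 and 21 was -0.43 with libraries scaled to a common sum and -0.35 with quantile normalization, neither called (limma adjusted p = 0.081 and 0.2). For Car4 the day 21 minus day 3 difference was -1.05 and not called (limma adjusted p = 0.064), and it was called with a common sum (-1.21), with quantile normalization (-1.49) and with the replicate block (adjusted p = 0.047). Groups of 3 libraries are too small for a test of single outlying libraries.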

How the results depend on the processing

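Of 254 values under other settings, 244 were rated the same, as were 427 of 432 values with 1 library left out. For genes and ratios this means the same direction and side of the threshold. The values also include totals of genes called, for which it means a total of similar size. Most libraries left out were outside the comparison in question, and leaving those out cannot move its log2 fold. Calls at day 21 held for all 7 genes under each alternative run. The exceptions were these. Fxyd2 at day 1 was -0.14 with quantile normalization and -0.66 against sham kidneys of days 3 and 21, and 0.39 was called in a fit of that day alone (limma adjusted p = 0.046). With 1 library left out it ranged from 0.37 to 0.44, called without UIR day 21 replicate 3 (0.0097). Slc9a3 at day 1 was -0.31 against later sham kidneys and ranged from -0.11 to 0.69 with 1 library left out. Against later sham kidneys it was 0.06 without UIR day 1 replicate 3 and -0.75 without replicate 1. Car4 at day 1 was -2.41 against later sham kidneys. Atp1b1 at day 3 was -0.30, not called, with quantile normalization. Slc4a4 at day 3 was called at -1.19 after median-of-ratios centring, at -0.84 with array weights and at -0.67 in a fit of that day alone. It ranged from -0.95 to -0.51 with 1 library left out, called without sham day 3 replicate 2 and, at -0.67, without UIR day 1 replicate 3 or UIR day 21 replicate 3. The Slc4a4 to Slc9a3 ratio over all days was 0.13 with a pseudocount of 0.1. Slc9a3 was 0.47 to 2.62 FPKM in UIR kidneys at day 21, near the main pseudocount of 1, so that ratio depends on the pseudocount. The causes of the other exceptions were not tested. With a common sum, 1 or 2 of the 3 most like genes were shared for Fxyd4, Fxyd5, Atp1b1, Slc9a3 and Slc4a4.

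Sham and UIR libraries of the same day and replicate number had deviations that correlated at -0.07 to 0.11, so no pairing by number was seen within a day. A link between days by replicate number was not tested. With the replicate block 8705, 11058 and 11837 genes were called at days 1, 3 and 21 against 8770, 11104 and 11885 without, and no call of the 7 genes in UIR against sham changed.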
